A study of Sus scrofa with 6 samples.

Results

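Interferon-stimulated genes are the genes that cells switch on when interferon signals that a virus or other danger is near, and MX1, MX2, OAS1, ISG15, IFIT1, IRF1, IRF7, RSAD2 and DDX58 were followed here in pig muscle. A probe was taken for a gene when the name in the array files equalled its symbol or when the description held the symbol in round brackets. The rule found 11 probes for 6 of the 9 genes, out of 3459 genes with a symbol on the array, and ISG15, IFIT1 and RSAD2 had no probe by it. The samples were longissimus dorsi muscle (LDM, the glycolytic muscle of the study) and psoas major muscle (PMM, the oxidative one) of 3 unrelated female Landrace pigs at 210 days of age. The pigs were otherwise untreated, lived on the same diet and were without feed for 24 h before slaughter. Both muscles came from the same pigs, and RNA of each sample was labelled with Cy3 on 1 Agilent array, which gave 3 arrays per muscle.

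Interferons bind receptors on the cell surface, the receptors activate the kinases JAK1, JAK2 and TYK2, and these phosphorylate transcription factors such as STAT2, which carry the signal to the nucleus. The genes that follow include enzymes that block viral RNA or proteins, sensors that recognize foreign RNA and transcription factors that amplify the response. Muscle fibres, endothelial cells and resident leukocytes can all express such genes, so a piece of muscle measures them over a mixture of cells. In such samples, fewer cells of a type and less RNA per cell cannot be told apart.

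A level below is the log2 of the processed spot intensity minus the log2 of the 75th percentile of its array, so that 0 is the level of that percentile and 1 unit is a doubling. Of 43603 probes, 25835 met the detection rule (clearly over background on each array of LDM or on each array of PMM) and were tested with limma. The 11 probes of the interferon-stimulated genes all passed, and the scanner software marked each of them as well above background on all 6 arrays. The 75th percentile ranged from 595 to 883 intensity units, 58.5 to 72.4% of the spots of an array exceeded background, and no spot was saturated. Each replicate number had its own scan day, and its LDM and PMM arrays lay on a common slide for replicates 2 and 3 but not for replicate 1. The replicate number was taken to stand for the pig because the same-numbered arrays deviated together. It therefore cannot be told apart from the scan day or, for replicates 2 and 3, from the slide. The labels name the muscles but speak of adipose tissue for the extraction. Of the 10 skeletal muscle markers listed, 6 had a probe, all 6 were tested, and the creatine kinase gene CKM had a level of 9.39 to 10.3. The adipocyte markers ADIPOQ, LEP, CIDEC and FABP4 were detected on all 6 arrays as well.

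All probes are 60 bases long, and for the genes with more than 1 probe the sequences show whether the probes measure the same stretch of the transcript. The MX1 pair overlaps: the second probe starts 15 bases after the first, and the 45 bases they share make them nearly the same measurement. Their first 30 bases, 5′ to 3′ as the array files give them, are shown with the shared part in capitals.
MX1 A_72_P302839: tacagccacctgtgtGGATGGATGCACATA
MX1 A_72_P010326: GGATGGATGCACATAGAAGCCTATTTCTTT
The other pairs share no run of more than 7 bases. The last 30 bases of the MX2, OAS1 and IRF7 probes are shown because the probes of a gene disagreed for MX2 and OAS1 and followed each other for IRF7, with runs of at least 5 A in capitals.
MX2 A_72_P001276: cttgatAAAAAcagcactattcccAAAAAA
MX2 A_72_P177406: gcacagtgtaggggttctcctgtggcacag
OAS1 A_72_P293394: ccctAAAAAgacAAAAAAtaataataaaat
OAS1 A_72_P223657: atgtatgctccagcaactcaagaaacccag
IRF7 A_72_P065236: accctggacccctcccaatccaatAAAAAA
IRF7 A_72_P077861: cggcaccttcttccaagagttgatggagtt
In these last 30 bases the first probe of each pair carries a run of A and the second does not, although MX2 A_72_P177406 holds a run of 5 A in the part that is not shown. By the positions in the files, A_72_P223657 and A_72_P293394 start at base 871 and base 1694 of different OAS1 transcript records. Genome positions of the probes were not used here.

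Whether the glycolytic and the oxidative muscle differ in these genes was asked first. For the genes with a probe by the rule, limma called no difference between LDM and PMM, which does not show that the muscles are equal. It called 0 of the 11 probes, against 0.031% of all tested probes. Of the 11, 0 had an unadjusted p under 0.05, which 2.63% of all tested probes had. The PMM minus LDM difference ran from -0.02 to 0.38 on the log2 scale, with a median of 0.10 beside -0.04 over all tested probes, and 9 of the 11 probes had the higher mean in PMM. The levels of both muscles overlapped for each of the 11 probes, whereas they did not overlap for 5.94% of the probes with a value on all 6 arrays. Exact two-sided permutation of the 6 arrays gave p from 0.5 to 1 over the probes, where 0.1 is the smallest p possible.

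IRF1, a transcription factor that activates interferon and its target genes, had the largest difference between the muscles among the 11 probes. Its level was 0.64, 1.35 and 2.71 in LDM and 1.47, 1.62 and 2.75 in PMM, for replicates 1, 2 and 3. PMM was higher in 3 of 3 pairs, and the difference of 0.38 had an SE of 0.568, with a limma adjusted p of 1.0 and an exact p of 0.5. The 95% interval of this difference was -0.92 to 1.68, and -0.15 to 0.91 with the replicate number as a block.

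How much of the spread in that comparison lay between the replicate numbers differed by probe. The SE was 0.360 without the number as a block and 0.271 with it for OAS1 A_72_P293394. It was 0.513 and 0.408 for MX2 A_72_P001276. With the number as a block, the difference of MX1 A_72_P302839, the antiviral dynamin-like GTPase, stayed at 0.18 while its SE was 0.201 in place of 0.849. Its 95% interval then was -0.32 to 0.68. The blocked interval of OAS1 A_72_P223657, an antiviral enzyme that makes short oligoadenylates when it meets double-stranded RNA, was -0.21 to 0.96. The blocked fit still called 0 of the 11 probes, against 0.0658% of all tested probes, and 0 of them had an unadjusted p under 0.05, which 11.1% of all tested probes had in that fit. Among the 11 probes the lowest blocked adjusted p by limma was 0.583, for IRF1.

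**Figure D1:**
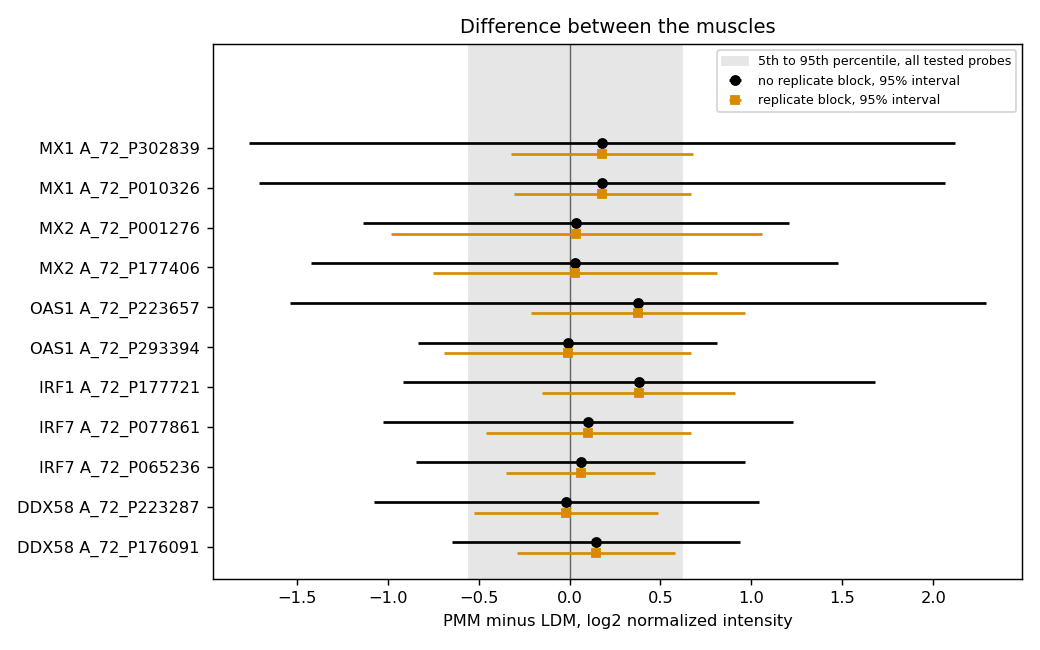
PMM minus LDM difference of the 11 probes on the log2 scale, with the 95% interval of the fit without the replicate number (black) and with it as a block (orange); the grey band spans the 5th to the 95th percentile of all tested probes. Each of the intervals includes 0, and the differences lie between -0.02 and 0.38.

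Whether same-numbered arrays of both muscles are high together was asked next. They were: the replicate 3 arrays carried the highest level of 9 of the 11 probes in both muscles, against 19.4% of all probes, and the F test of the replicate number called 8 of the 11, against 25.2%. Replicate 3 exceeded the mean of replicates 1 and 2 in 8 of the 11 probes after adjustment, against 9.22% of all tested probes. The median excess of replicate 3 over the 11 probes was 1.11 log2 units beside -0.09 over all tested probes. The same number was highest in both muscles for 9 of the 11, but this was so for 66.7% of all probes. In the planned count, with the brightest probe standing for each gene, it was so for 4 of the 6 genes, near the share over all probes. The order of the 3 numbers was the same in both muscles for 8 of the 11 probes, against 46.6%. Replicate 1 was below the mean of the other numbers in 5 of the 11 probes, against 12.8% of all probes, and replicate 2 stood apart in 0 of the 11, against 0% of all.

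MX1 had the largest excess. The level of A_72_P302839 was 0.84, 1.81 and 3.96 on the LDM arrays of replicates 1, 2 and 3 and 1.37, 1.98 and 3.79 on the PMM arrays. Both replicate 3 arrays lay above all the others and both replicate 1 arrays below, in LDM and in PMM. Replicate 3 exceeded the others by 2.37 log2 units (SE 0.213), which is 5.17-fold, with a limma adjusted p of 0.023, and the F test of the number gave an adjusted p of 0.028. Within LDM replicate 3 was 8.66-fold above replicate 1, and within PMM it was 5.33-fold above. The overlapping probe A_72_P010326 gave 2.30 (SE 0.206). MX2, the related GTPase beside MX1 with 1 annotated gene between them in the Sscrofa11.1 assembly, was dim, with processed intensities of 43.9 to 310 units over its probes. The level of A_72_P177406 was -3.19, -2.59 and -2.04 in LDM and -3.76, -2.83 and -1.14 in PMM, with replicate 3 highest in both muscles and 2.83-fold above the others (SE 0.331 on the log2 scale, adjusted p = 0.035 in limma). This call did not hold after the normexp background correction, where the excess was 0.35 (adjusted p = 0.761), and the adjusted p of its F test was 0.058 with quantile normalization and 0.066 with the percentile over probes detected on all arrays. The other probe, A_72_P001276, gave -1.51, -2.86 and -2.28 in LDM, where replicate 1 was highest, and -2.57, -2.77 and -1.19 in PMM. Its excess in replicate 3 was 0.69 (SE 0.433) and did not pass the limma test (adjusted p = 0.282).

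The probes of OAS1 disagreed more widely. A_72_P223657 had levels of 0.43, 2.02 and 3.65 in LDM and 1.37, 2.16 and 3.69 in PMM. Replicate 3 was 4.53-fold above the others (2.18, SE 0.25, limma adjusted p = 0.023), and replicate 1 was lowest in both muscles. A_72_P293394 gave 3.90, 3.05 and 3.49 in LDM and 3.17, 3.29 and 3.94 in PMM, so that replicate 1 was highest in LDM and lowest in PMM. Its excess in replicate 3 was 0.36 (SE 0.287, limma adjusted p = 0.388). Over the 6 arrays the OAS1 probes correlated at 0.124 and the MX2 probes at 0.496, as against 1.0 for MX1, 0.957 for IRF7 and 0.884 for DDX58. Runs of A occurred in the OAS1 probe that did not follow replicate 3, in both MX2 probes and in 1 of the IRF7 probes, both of which followed it, and their part in the disagreement was not tested.

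Among the transcription factors, the level of IRF1 given above was highest in replicate 3 in both muscles, 2.74-fold above the others (1.46, SE 0.225, limma adjusted p = 0.023). IRF7, the factor that drives the later wave of interferon production, had a different order of the numbers. The level of A_72_P077861 was -0.73, -0.91 and 0.47 in LDM and -0.10, -1.08 and 0.32 in PMM. Replicate 3 was again highest in both muscles, but replicate 2 and not replicate 1 was lowest. The excess of replicate 3 was 2.15-fold in this probe (adjusted p = 0.034) and 1.66-fold in A_72_P065236 (adjusted p = 0.040, and 0.0523 with median centring), both by limma.

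DDX58 encodes RIG-I, the helicase that recognizes viral RNA in the cytoplasm, and was dim, with intensities of 33.7 to 142 units. A_72_P223287 gave -3.72, -4.15 and -2.97 in LDM and -4.14, -3.95 and -2.79 in PMM, with replicate 3 above the others by 1.11 (SE 0.215, limma adjusted p = 0.028). A_72_P176091 also had its highest level in replicate 3 in both muscles, at -2.45 and -2.27, but the excess of 0.55 (SE 0.184) missed the threshold, with a limma adjusted p of 0.082. Within LDM alone the excess of replicate 3 ran from -0.10 to 2.63 over the 11 probes, and within PMM alone from 0.58 to 2.15. With the brightest probe standing for each gene, the F test called 3 of the 6 genes, MX1, IRF1 and IRF7, against 25.2% of all tested probes. With the mean of the probes of a gene it called 4.

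**Figure D2:**
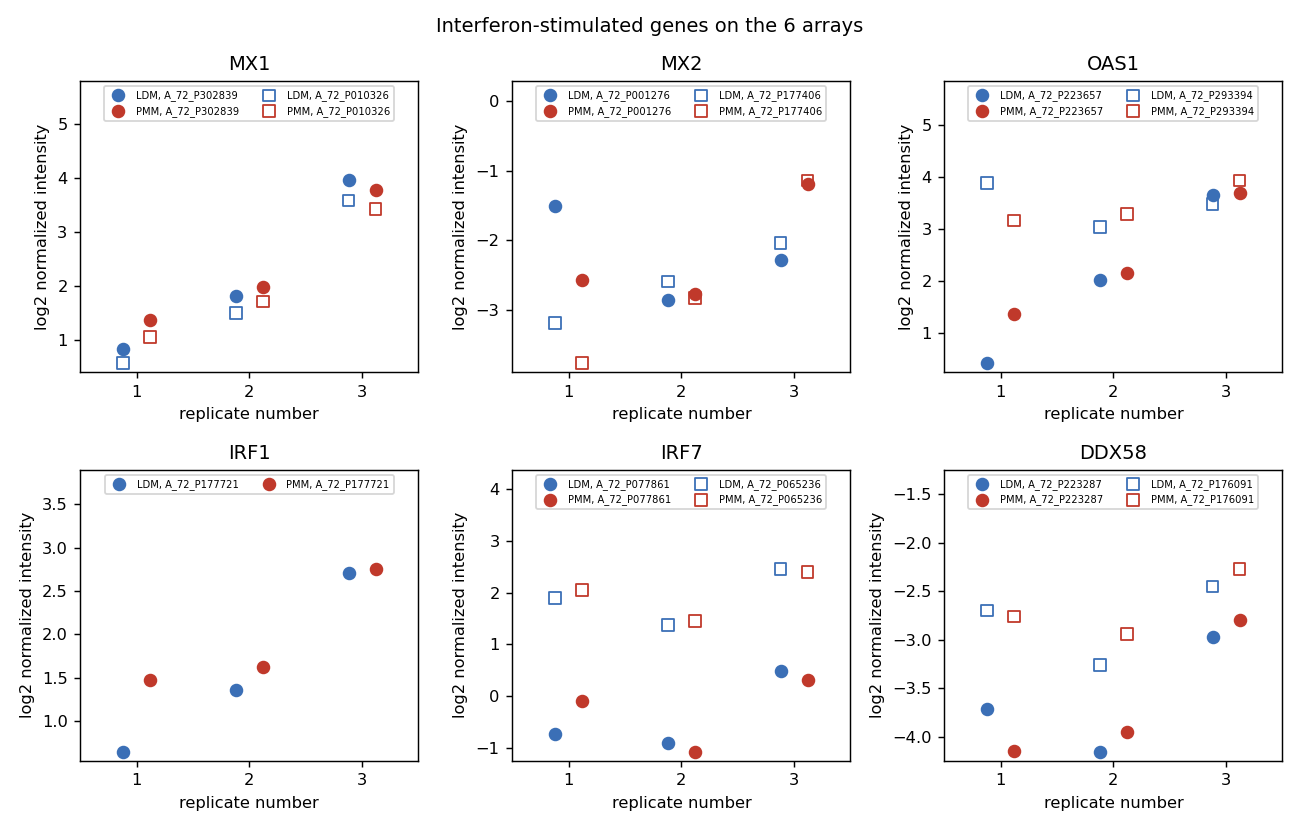
Level of each probe (log2 of intensity over the 75th percentile of the array) against the replicate number, with LDM in blue and PMM in red; filled circles and open squares are the probes of a gene, and each panel has its own axis. In MX1, replicate 3 lies at 3.43 to 3.96 and the other arrays at 0.58 to 1.98, while the open squares of OAS1 do not follow the number.

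The test of the replicate number depended on single arrays, while the size of the excess of MX1 did not. Without LDM replicate 2, LDM replicate 3, PMM replicate 2 or PMM replicate 3 the F test called 0 of the 11 probes, and without LDM replicate 1 or PMM replicate 1 it called 9. This was not particular to these probes. Of all tested probes it called 6502 with all arrays, 9791 without LDM replicate 1 and 1 without LDM replicate 2. The excess of MX1 A_72_P302839 stayed between 2.11 and 2.63. The F test also called 0 of the 11 after the normexp background correction, under which the excess was 2.47 for MX1, 2.35 for OAS1 A_72_P223657, -0.29 and -0.28 for the dim DDX58 probes and -0.33 at the median of all tested probes, and 0 with no filter on detection, under which the excesses of these probes kept their values and the median of all probes was 0.0416.

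The genes without a probe by the rule were looked for in other ways after the values of the others had been seen, and these are outside the counts above. RSAD2, an enzyme that blocks viral replication, had a probe under an older name that its RefSeq record identifies. Its level was -1.36, -0.04 and 1.68 in LDM and -0.82, 0.29 and 1.91 in PMM, and replicate 3 exceeded the others 4.85-fold (limma adjusted p = 0.023). IFIT1, which binds foreign RNA and blocks its translation, was found through its gene number and gave -0.62, 0.82 and 1.84 in LDM and 0.56, 1.29 and 2.02 in PMM, with an excess of 2.67-fold (limma adjusted p = 0.026). A probe described as a canine interferon-induced ubiquitin-like protein of the ISG15 kind gave 1.82, 3.13 and 5.28 in LDM and 2.67, 3.73 and 5.38 in PMM. Its excess in replicate 3 was 5.62-fold (limma adjusted p = 0.023), and replicate 1 was lowest in both muscles for each of these 3 probes. PMM was higher in 3 of 3 pairs for each of them, by 0.36 for RSAD2, 0.61 for IFIT1 and 0.52 for the ISG15-like probe. Limma with the replicate number as a block called none of them (adjusted p from 0.444 to 0.518). The blocked 95% interval of IFIT1, 0.014 to 1.21, did not include 0 (limma unadjusted p = 0.046). In that fit 11.1% of all tested probes had an unadjusted p under 0.05. A further probe described as MX2, A_72_P027231, gave -3.17, -2.37 and -2.60 in LDM, where replicate 2 was highest, and -3.51, -2.65 and -1.19 in PMM, and its excess of 1.03 (SE 0.405) did not pass the limma test (adjusted p = 0.119). A probe described as like IFIT1, A_72_P308188, was not detected over background on any array and was not tested.

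The other genes of the interferon pathway were taken from a list of 100, of which 32 had a probe by the same rule and 26 were tested. The F test of the replicate number called 19 of the 26, against 25.2% of all tested probes. Replicate 3 was higher in 16 and lower in 1, against 9.22% and 12.1% of all tested probes. Between PMM and LDM 0 of the 26 were called, against 0.031%. In the comparison of the muscles 0 of the 26 had an unadjusted p under 0.05 in limma without the block. With it 1 had, against 11.1% of all tested probes: TNFSF10, at -0.41 with a blocked adjusted p of 0.45. The median excess of replicate 3 over the 26 was 0.99 log2 units.

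The ligands could not be followed, since IFNA1 and IFNB1, the 2 of 8 listed with a probe, were below that detection limit on each of the 6 arrays. Against 9.22% of all tested probes, 3 of 8 tested receptors and signal transducers were higher in replicate 3, among them STAT2 and USP18, an inhibitor of the receptor. USP18 had an excess of 1.05 (SE 0.186, limma adjusted p = 0.026). JAK2 was lower in replicate 3 by -0.95 (SE 0.217, adjusted p = 0.038), whereas TYK2 at -0.11 and JAK1 at -0.47 did not pass the test. TYK2 had the largest difference between the muscles in this list, 0.56 (SE 0.337, adjusted p = 1.0).

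Against 9.22% of all tested probes, 3 of 7 tested sensors and adaptors were higher in replicate 3. They were IFIH1, a helicase related to DDX58, with an excess of 1.34 (SE 0.211), the adaptor MYD88 with 1.16 (SE 0.222) and the endosomal RNA receptor TLR7 with 0.99. The excess of TLR3 was 0.99 (SE 0.283) with an adjusted p of 0.059, and that of MAVS, the adaptor through which RIG-I signals, was -0.77 (SE 0.217) with an adjusted p of 0.057, both by limma. IRF3, the only other interferon regulatory factor tested, had an excess of 0.80 (SE 0.289, adjusted p = 0.0999).

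Of 56 other effectors listed, 11 had a probe and 10 were tested. Higher in replicate 3 were 10 of the 10 tested, against 9.22% of all tested probes, with excesses of 0.95 to 2.94. ISG20, detected on 1 array and not tested, had its lowest level in replicate 3 in both muscles. CXCL9, a chemokine that attracts T cells, was detected over background on 5 of the 6 arrays, as was OASL. Its level was -5.45, -4.44 and -1.84 in LDM and -4.79, -4.50 and -1.86 in PMM, and replicate 3 exceeded the others 7.68-fold (2.94, SE 0.226, limma adjusted p = 0.023). OASL, a relative of OAS1, had an excess of 2.51 (SE 0.267), the chemokine CXCL10 of 2.15 (SE 0.285), OAS2 of 1.88 (SE 0.173) and TNFSF10, a ligand that induces cell death, of 1.04 (SE 0.175). Replicate 1 was lower than the others in 10 of the 10 effectors as well, against 12.8% of all tested probes. Naming probes also through RefSeq, which was done after the values had been seen, added 7 genes of the list. Of these 7, 4 were higher in replicate 3, against 9.22% of all tested probes. The effector SAMHD1, with an excess of 0.30 (limma adjusted p = 0.325), was not among the 4.

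**Figure D3:**
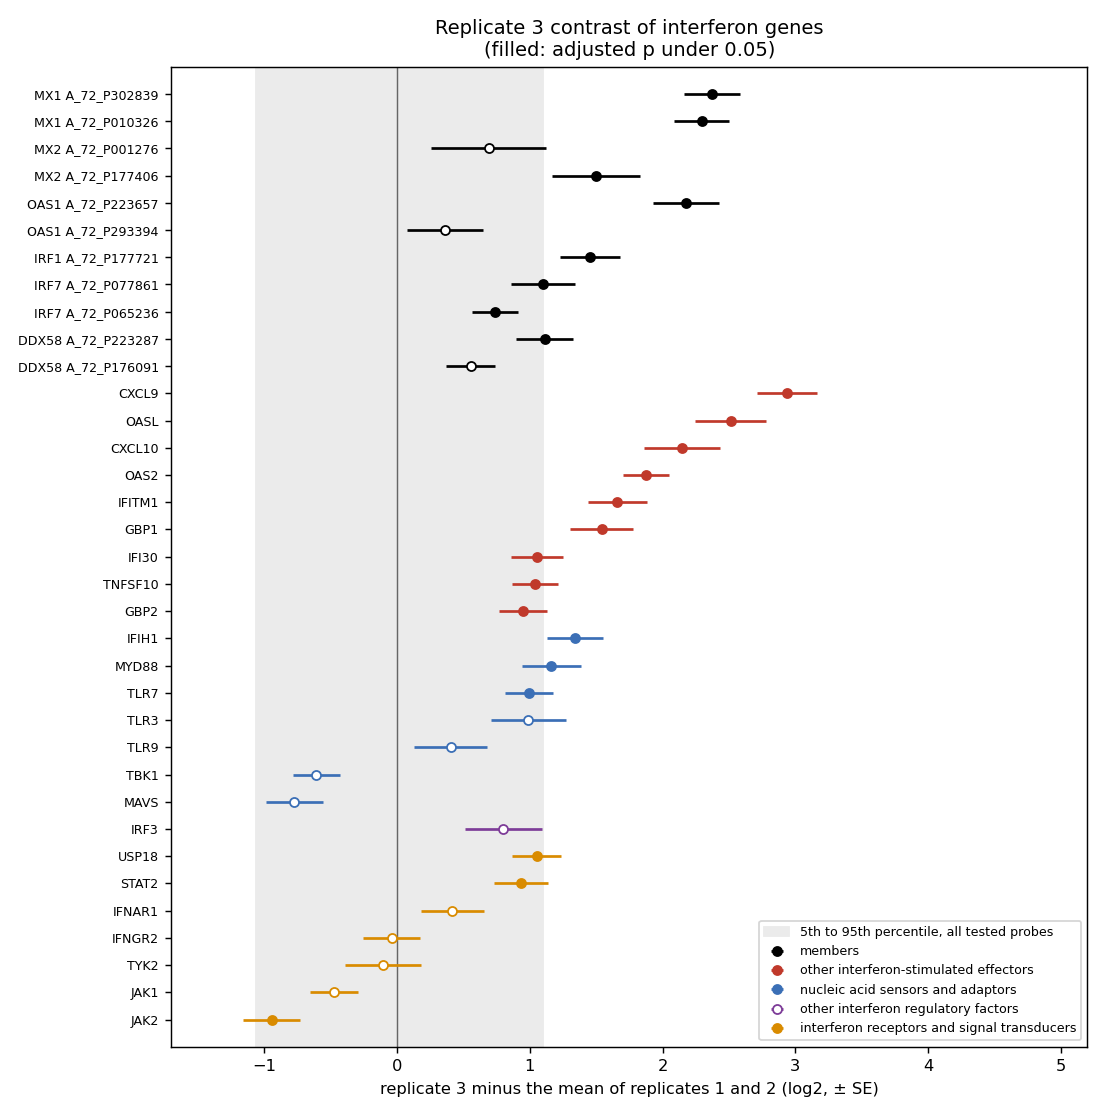
Replicate 3 minus the mean of replicates 1 and 2 (log2, both muscles in 1 fit, bars are SE) for the 11 probes and the tested pathway genes that the axis names; filled points passed the limma test and the grey band spans the 5th to the 95th percentile of all tested probes. The effectors in red lie from 0.95 to 2.94, while the receptors and signal transducers in orange run from -0.95 to 1.05.

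Markers of other cells moved with the same number. Of the macrophage and monocyte markers 6 of 10 listed had a probe. Higher in replicate 3 were 6 of 6 tested, against 9.22% of all tested probes, with the lysozyme gene LYZ at 2.61 and the scavenger receptor CD163 at 1.27. Their summed intensity, in units of the 75th percentile of the array, was 12.6, 30.7 and 61.0 in LDM and 15.7, 30.4 and 52.4 in PMM. Of the T and NK cell markers, 8 of 10 had a probe, 6 of 7 tested were higher in replicate 3, and the sum ranged from 2.07 to 5.81 in LDM and from 2.48 to 6.64 in PMM. CD4 was detected on 1 array. PTPRC, the gene of the common leukocyte antigen CD45 and the only one of 4 such genes with a probe, was 2.14-fold higher in replicate 3.

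Among the endothelial markers, 3 of 5 were higher in replicate 3, against 9.22% of all tested probes. Their sum was 53.0, 92.1 and 162 in LDM and 90.4, 106 and 156 in PMM. In the adipocyte list 1 of 4 tested was higher in replicate 3, FABP4 at 1.01, and the sum was lowest in replicate 1 in both muscles, at 72.4 and 61.6 against 222 to 243 elsewhere. Of the skeletal muscle markers 0 of 6 tested were higher in replicate 3, which is near the share of 9.22%. Their sum was 4652, 2990 and 4460 in LDM and 5616, 3605 and 4074 in PMM, highest in replicate 1 and lowest in replicate 2 in both muscles. Of the 5 erythrocyte genes listed, only HBE1 had a probe. Its level was low, from -5.00 in LDM replicate 1 to -2.79 in PMM replicate 3, and its excess was 0.79 (limma adjusted p = 0.085). The B cell marker CD79A was not detected over background on any array, and no probe was matched to the 6 neutrophil markers. The part of these cells in the level of the interferon-stimulated genes was not tested.

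**Figure D4:**
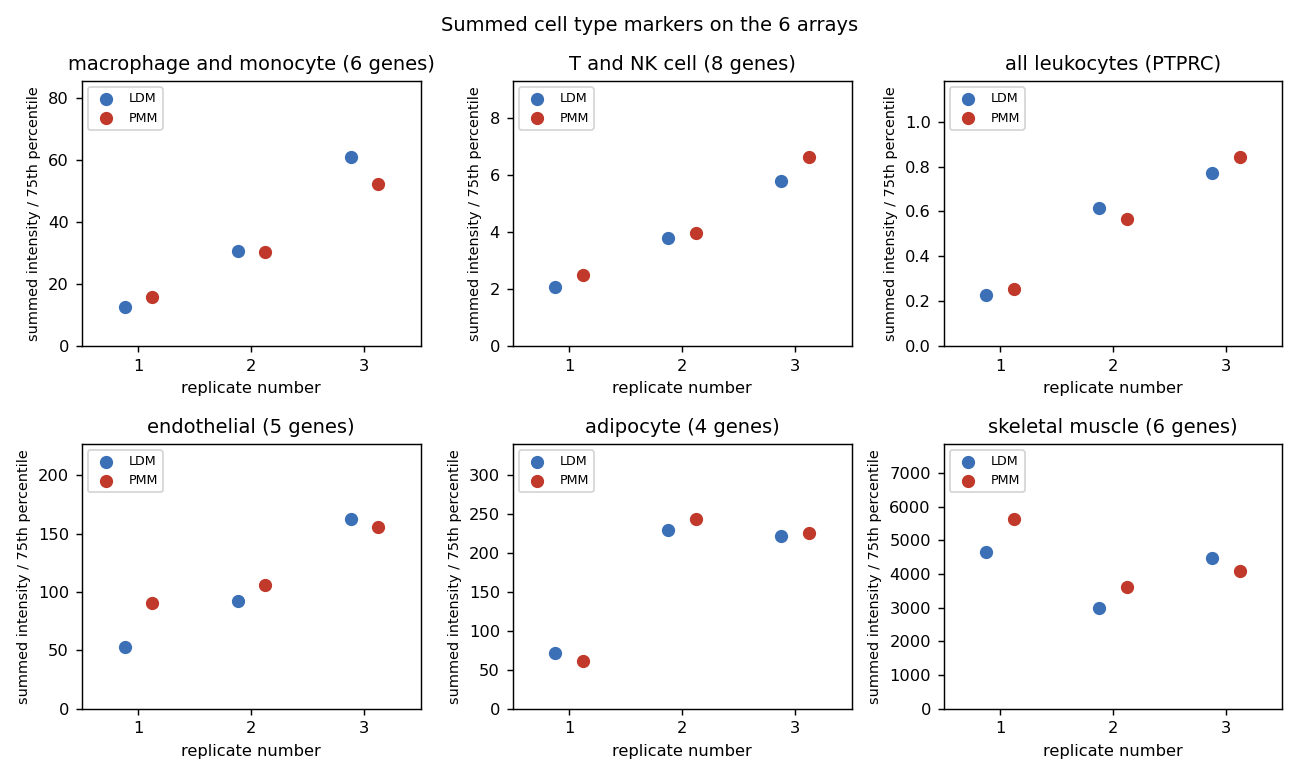
Summed intensity of the markers of 6 cell type lists, in units of the 75th percentile of the array, against the replicate number, with LDM in blue and PMM in red. Macrophage and monocyte markers reach 61.0 and 52.4 on the replicate 3 arrays and 12.6 and 15.7 on those of replicate 1. The skeletal muscle markers lie between 2990 and 5616, with replicate 1 highest and replicate 2 lowest in both muscles.

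The genes whose pattern over the 6 arrays was most like that of the interferon-stimulated genes were sought among 1754 probes with a symbol and an SD of at least 0.5. The pattern was the mean of the centred levels of the brightest probe of each of the 6 genes, and its values were -0.24, -0.51 and 0.56 in LDM and -0.30, -0.32 and 0.81 in PMM. FCN1, a secreted pattern recognition protein of monocytes, had a Pearson r of 0.986 with it, followed by the immunoglobulin gene IGG2B (0.985), FABP6 (0.978), LYPD1 (0.973) and RNASE10 (0.969). In all, 84 of the 1754 probes had an r over 0.9. These correlations rest on 6 arrays that share 3 numbers, and are given as a description. With the mean of all 11 probes as the pattern, chosen after the values had been seen, 177 had an r over 0.9.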

How the data were processed

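The authors deposited linear spot intensities of the Cy3 channel, from Agilent Feature Extraction 10.5.1.1, where background had been removed and outliers marked. They were not normalized between arrays, and the methods name the MultiExperiment Viewer but no test. A series value table held the same intensities (largest log2 difference 0.004 after scaling).

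Control and outlier spots were left out, repeated spots averaged, and levels were log2 intensities relative to the array's 75th percentile. Probes marked well above background on each of the 3 arrays of LDM or of PMM, with at least 2 values per muscle, entered limma 3.58.1 in R 4.3.3 (lmFit, eBayes, two-sided, Benjamini-Hochberg over all 25835 probes, threshold 0.05). PMM was compared with LDM, and the replicate number was tested by limma's F test beside the muscle, with contrasts of each number against the mean of the others. The fits were tested on simulated data. The number of arrays limits the precision, differences are on the log2 intensity scale, and fold changes are the ratios of intensity that these differences stand for. Deviations from the muscle mean correlated at 0.62, 0.70 and 0.56 between same-numbered arrays, so same-numbered arrays were treated as pairs. These arrays also share a scan day, so the correlations cannot show that a number is a pig. The labels place both muscles in the same pigs but do not tie a number to a pig.

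The members and lists were chosen with earlier results of these data known. Named were all members with every probe, of each pathway list up to 3 genes with the largest muscle difference and up to 3 with the lowest F test p, and the 5 genes most alike in pattern. Genes named besides these (STAT2, TLR7, the probes found outside the rule) were chosen after their values were seen, and some genes are not reported here. Alternatives were other scalings, the normexp correction with an offset of 50, outlier spots, the detection filter, the value table, each array left out, the replicate block and the slide as a random block. The excess of replicate 3 and the counts of member probes were added to these after the data were seen.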

Additional observations from a re-analysis of the deposited data

How the results depend on the processing

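Over 17 alternatives, limma called 0 of the 11 probes and 0 pathway genes between PMM and LDM in each. All tested probes called numbered 8, and 0 with the percentile over probes detected on all arrays, with outlier spots kept, with no filter, with detection on all 6 arrays and with the replicate block and quantile normalization, 1 after normexp, 300 when the slide was a random block, 17 under the replicate block and 0 to 1 without single arrays. The block changed no other call. The differences near 0 changed sign: OAS1 A_72_P293394 was 0.0666 with quantile normalization, with or without the replicate block, 0.0213 with the percentile over detected probes and 0.27 with the slide block, DDX58 A_72_P223287 was 0.0153 with that percentile, 0.34 after normexp and 0.14 with the slide block, MX2 was -0.0201 and -0.0285 with median centring, IRF7 A_72_P065236 was -0.0551 after normexp, IRF7 A_72_P077861 was -0.10 with the slide block and OAS1 was 0.18 with the mean of its probes. Without single arrays the difference ran from -0.52 to 1.06 and -0.50 to 1.03 for MX1, -0.46 to 0.39 and -0.69 to 0.62 for MX2, -0.43 to 1.19 and -0.25 to 0.20 for OAS1, -0.0804 to 0.95 for IRF1, -0.20 to 0.53 and -0.21 to 0.33 for IRF7 and -0.44 to 0.30 and -0.0833 to 0.32 for DDX58. Over 14 alternatives to the test of the replicate number, normexp and no filter gave 0 called of all probes, of the 11 probes, of the 11 in replicate 3 and of the pathway genes, where 6502, 8, 8 and 19 were called. Without single arrays these ran from 0 to 10198, 0 to 9, 0 to 8 and 0 to 20, and 4 to 6 genes and 9 to 11 probes had the same number highest in both muscles. The excess of replicate 3 was -0.13 for MX2 A_72_P001276 and -0.29 and -0.28 for DDX58 after normexp, and ran from -0.10 to 1.48 for that MX2 probe without single arrays. After normexp the 10th percentile of an array was 0.0838 to 0.526 of its 75th, against 0.00335 to 0.00893 before.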
